A study of Bos taurus with 12 samples.

Results

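NFATC1 encodes a transcription factor of the nuclear factor of activated T cells family, and its locus was followed here at every CpG position that reduced representation bisulfite sequencing (RRBS) tested across the gene and its flanks. The positions were taken by coordinate alone: all tested positions from 1020001 to 1120001 on chromosome 24 of the bosTau8 genome, a window that holds the NFATC1 positions in the authors' list of differing positions. They numbered 167 of 838705 tested positions, lay between positions 1035343 and 1119030, and belonged to 139 CpGs, of which 28 were tested on both strands. Only listed positions carry a gene annotation in the deposited data, so the remaining positions are described by their place and not by exon, intron or gene. The 1 listed position with a promoter annotation is 1100874. The listed intron positions all have lower coordinates, so the gene is read here from the promoter towards lower coordinates.

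The data came from primary dermal fibroblasts, the main connective tissue cells of the skin, of 6 Holstein heifers that were each sampled at 5 months and again at 16 months of age. This gave 6 young and 6 old cultures, paired by animal, all unstimulated, at passage 6 and revived from frozen stock at the same time. The study chose animals of middling response to bacterial lipopolysaccharide (LPS), and asked whether methylation differs between young cultures and the more LPS-responsive old cultures. Each culture was 1 library, so repeated cultures of an animal at 1 age are not at hand, and the age of the heifer and the time a stock had spent frozen cannot be told apart. The files hold no expression values, so the labelled cell type was not checked against marker genes.

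In resting cells NFATc1 is held phosphorylated in the cytoplasm. A rise in calcium activates calmodulin and the phosphatase calcineurin, which removes these phosphates and lets NFATc1 enter the nucleus, where it acts with AP-1 partners on cytokine and other inducible genes until kinases return it to the cytoplasm. Methylation of cytosine in CpG dinucleotides is commonly sparse in CpG island promoters and dense in gene bodies. The methylation level of a position is the share of reads of a culture that kept a C there after bisulfite treatment, given below in percent.

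Across the NFATC1 window the young cultures were the more methylated. The mean level over the 167 positions was 34.5% ± 1.84 (SD, n = 6) for the young and 28.8% ± 0.773 for the old cultures. The young culture was higher in all 6 animals, by 2.23 to 8.32 percentage points, with a mean of 5.67 ± 2.00. Over the whole table the same mean was 0.437 ± 0.580 points, with the young culture higher in 4 of 6 animals, and over chromosome 24 it was 0.582. These window means are a description without a test, because the locus had been picked with results of these data known.

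The window was tested at modest depth. The reads behind its positions summed to between 2066 and 2535 in the young cultures and between 1799 and 2653 in the old cultures, and a position had 12 reads per culture in the median. Over all tested positions the sums were 25962640 to 28820145 reads for the young and 19007741 to 31643295 for the old libraries. A level of 50% read from 12 reads has a 95% Wilson interval from 25.4% to 74.6%, and this interval covers counting error only, since RRBS reads are not independent molecules. The 12 libraries all had even read numbers at 48 window positions (28.7%), against 14.6% of the whole table, and overlapping mates had been counted as 2 reads by the authors. Of the listed positions of NFATC1, 1038878 and 1048455 were of this kind, and its part in their levels was not tested. Any odd count leaves a position out of this kind, so the other listed positions are not shown to be free of doubled reads. The listed position 1038351 had 21.6 reads per culture, and 1038335 on the same strand, which was of this kind, had 21.7. Likewise 1038352 had 18.5 against 18.7 at 1038336, and 1100874 had 16.1 against 16.3 at 1100885. By contrast 1037988, 1037992 and 1038043 had 10, 10 and 9.92 against 20 at 1038012. Double counting at these positions was not tested.

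The difference was not spread evenly over the window. The authors' list held 11 positions of NFATC1, 10 in introns and 1 in the promoter, with 0 in exons, and all were more methylated in young cultures. The same 11 positions were the ones called here (paired test of the methods on the levels, unadjusted P below 0.05 and a difference of at least 10 points). They made 6.59% of the tested positions of the window, where 1.12% of the whole table was called in that direction. Because the window was set to hold the listed positions, a share above that of the table was built in. This share, and the others set against the table below, are descriptions only. In the opposite direction 0 window positions were called against 0.567% of the table, and at an unadjusted P below 0.05 without the minimum difference the paired test also gave 0. By the Benjamini-Hochberg adjustment of the paired test over all tested positions, 0 positions of the window passed, and the smallest adjusted P in the window was 0.889. The counts below therefore rest on unadjusted tests. With at least 10 reads in every culture 22 window positions remained, of which 1 (4.55%) was called (1038351), against 0.709% of such positions of the table. These read counts include overlapping mates counted as 2 reads. Without the pairing by animal, 18 positions were called.

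Consistency over the pairs was seen at 7 positions of the window, at which the young culture was higher in all 6 animals, against 0.693% of the table. Of these, 6 were listed. The other was 1091637, which was singled out after its values were seen. There the young cultures ranged from 45% to 100% with a median of 56.0%, and the old cultures from 8% to 44% with a median of 36.5%. The ages did not overlap at this position, and the difference was 29.3 ± 29.1 points. It was not called by the paired test (unadjusted P = 0.0564), and it carries no exact test here because it was picked for its common direction. The other strand of the same CpG, 1091638, overlapped, with 0% to 62% in young and 10% to 36% in old cultures. Animal 2 was lower there in the young culture, at 0% against 36%. With the reads of both strands summed, the CpG differed by 20.9 ± 23.0 points, higher in the young culture in 5 of 6 animals. The ages did not overlap at 2 positions of the window in all, 1091637 and 1037988, both higher in young cultures, where 0.0936% of the table showed this.

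The size of the difference varied with the methylation level, which itself bounds the difference that is possible near either end of the scale. At 77 positions (46.1%) the mean level of the 12 cultures was at most 10%, and there the ages differed by 0.749 ± 0.839 points. A further 32 positions (19.2%) were at 80% or above, with 93.7% in young and 90.6% in old cultures. The young culture was higher there in all 6 animals, by 0.344 to 6.53 points and by 3.07 ± 2.25 on average, and 2 of the 32 positions (6.25%) were called as more methylated in young cultures, against 0.893% of such positions of the table. The remaining 58 positions (34.7%), of intermediate level, held 44.5% ± 4.35 in young and 30.9% ± 2.66 in old cultures.

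At these intermediate positions the young culture was higher in all 6 animals, by 4.55 to 20.2 points and by 13.6 ± 5.14 on average. The intermediate positions of the whole table differed by 1.51 points on average. The difference was above 0 at 49 of the 58 positions and below 0 at 8. The paired test called 9 of them (15.5%) as more methylated in young cultures, against 3.58% of the intermediate positions of the table, and 0 as more methylated in old cultures, against 1.56%. Intermediate positions made up 25.7% of the table.

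Over all 167 positions the difference was above 0 at 92, below 0 at 37 and exactly 0 at 38. It ranged from -8.17 to 42.3 points with a median of 1.33. It reached 10 points at 34 positions, all higher in young cultures, and 22 of these 34 fell in the 5 stretches described next.

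**Figure D1:**
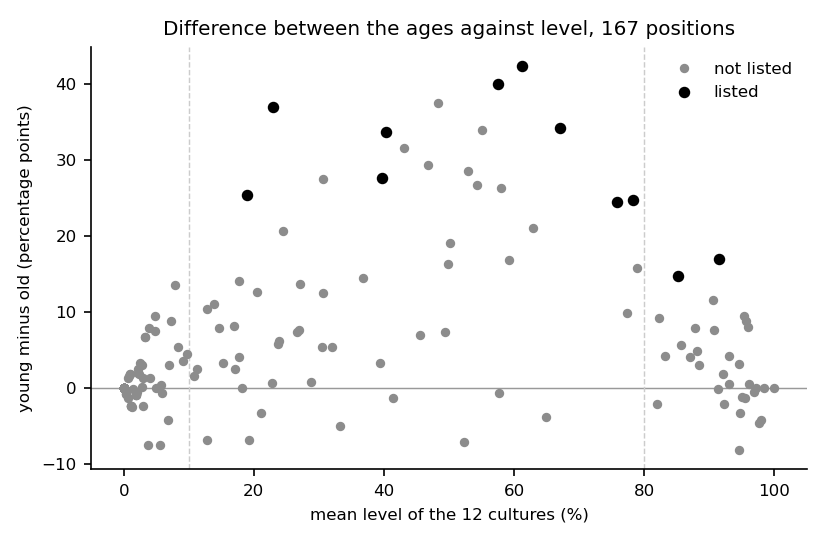
Difference between the ages (young minus old, percentage points) against the mean level of the 12 cultures (%), 1 point per tested position of the NFATC1 window, with dashed lines at 10% and 80%. The differences fan out upwards between the dashed lines, to 42.3 points, and narrow towards both ends of the scale, and no position lies at -10 points or below.

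A stretch was taken as a run of tested positions with gaps of at most 100 bp. There were 38, of which 21 had at least 3 positions and together held 143 positions. By their mean levels, 5 were lower in old cultures (a mean difference of at least 10 points, and the young culture higher in at least 5 of 6 animals), 8 were unmethylated (at most 10% at both ages), 3 were methylated (at least 80% at both ages) and 5 were intermediate without such a difference. None met the mirror of the rule, that is, higher in old cultures. The 5 stretches lower in old held 25 positions, all 25 with the higher mean in young cultures, and their positions differed by 24 points on average. The other 142 positions differed by 2.45 points, with 67 above 0. Positions within a stretch often share reads of the same fragments and are not independent of each other, and these classes were set by the levels, so they carry no test.

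The stretch at the promoter, positions 1100852 to 1100915, held 8 positions of 6 CpGs. It includes 1100874, which the authors annotated to the NFATC1 promoter and to a CpG island. The mean level of the stretch ran from 20.5% to 72.9% with a median of 62.4% in young cultures, and from 14.9% to 40.4% with a median of 31.2% in old cultures. The lowest young value belonged to animal 2, whose young culture was 16.8 points below its old culture, while the other 5 animals were 24 to 58 points higher in the young culture. Over all 6 the difference was 27.7 ± 25.9 points, and without animal 2 it was 36.6.

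At 1100874 itself the young cultures ranged from 50% to 100% with a median of 74.0%, and the old cultures from 14% to 65% with a median of 36%. The groups overlapped, but the young culture was higher in every animal, animal 2 included. The difference was 40.0 ± 25.1 points (exact sign-flip permutation test, two-sided, P = 0.031, n = 6), and 6 animals cannot give a smaller P by this test. This and the other listed positions were picked by a paired test of the same values, so their exact P-values here and below add no independent support. The other strand of the same CpG, position 1100873, gave 72.0% ± 20.5 in young and 38.0% ± 21.2 in old cultures. Its difference of 34.0 ± 39.4 points was above 0 in 5 of 6 animals, with animal 2 at 40% young and 58% old (exact permutation P = 0.0938, n = 6). With the reads of both strands summed, the CpG differed by 32.8 ± 20.3 points in 5 of 6 animals, which did not pass (exact permutation P = 0.0625, n = 6). The other 7 positions of the stretch all had the higher mean in young cultures, by 12.5 to 34.0 points, and none of them was called.

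Next to it, 399 bp further towards lower coordinates, began a block that differed sharply in level. The paper places the listed promoter position upstream of the transcription start, at an approximate distance that puts the start inside this block. The block is therefore not gene body alone, and the differing stretch lies upstream of the start. From 1100453 back to 1099175, over 1279 bp, 5 unmethylated stretches followed one another with 47 positions of 35 CpGs. Their mean level was 1.57% ± 0.579 in young cultures and 1.18% ± 1.46 in old cultures, a difference of 0.390 ± 1.69 points, and no single level in any culture exceeded 33%. At 21 of the 47 positions every culture read 0. The mean of the block was higher in the young culture in 5 of 6 animals. The paired test called 0 of the 47 positions in either direction. Among positions of the table at such low levels it called 771 of 524399 (0.147%) as more methylated in young cultures. It called 351 as more methylated in old cultures. At these shares 47 positions are too few for 0 calls to show that the block was unchanged.

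Inside this block the stretches were not identical. The one nearest the promoter stretch, 1100368 to 1100453, stood at 6.98% ± 4.22 in young and 1.33% ± 1.77 in old cultures, with the young culture higher in 5 of 6 animals and again not in animal 2. All 7 of its positions had the higher mean in young cultures, by 1.33 to 9.50 points. The stretch from 1099454 to 1099497 went the other way, at 0.755% in young and 2.44% in old cultures, which rested largely on the old culture of animal 4 at 9.06%. The stretch from 1099835 to 1099866 read 0 at all 8 positions in all 12 cultures. A position there had 6 to 24 reads a culture. Positions this close can share reads, so the 8 do not add up to a deeper count, and a low level could have been missed.

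Beyond the promoter stretch, at higher coordinates, lay 20 more tested positions, of which 0 were called, too few to set against the 1.12% of the table. Their differences ranged from -2.33 to 9.50 points, the highest at 1112926 (singled out after its values were seen), where all 6 young cultures read 100% and the old cultures 80% to 100%. With the other strand of that CpG, 1112925, the difference was 8.58 points, higher in the young culture in 4 animals and lower in 1. Among the 20 were also 2 unmethylated stretches. That from 1105531 to 1105543 was at 0 in every culture, from 6 to 30 reads a position and culture, so a low level could have been missed. That from 1113927 to 1114005 was at 1.22% in young and 0.900% in old cultures.

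**Figure D2:**
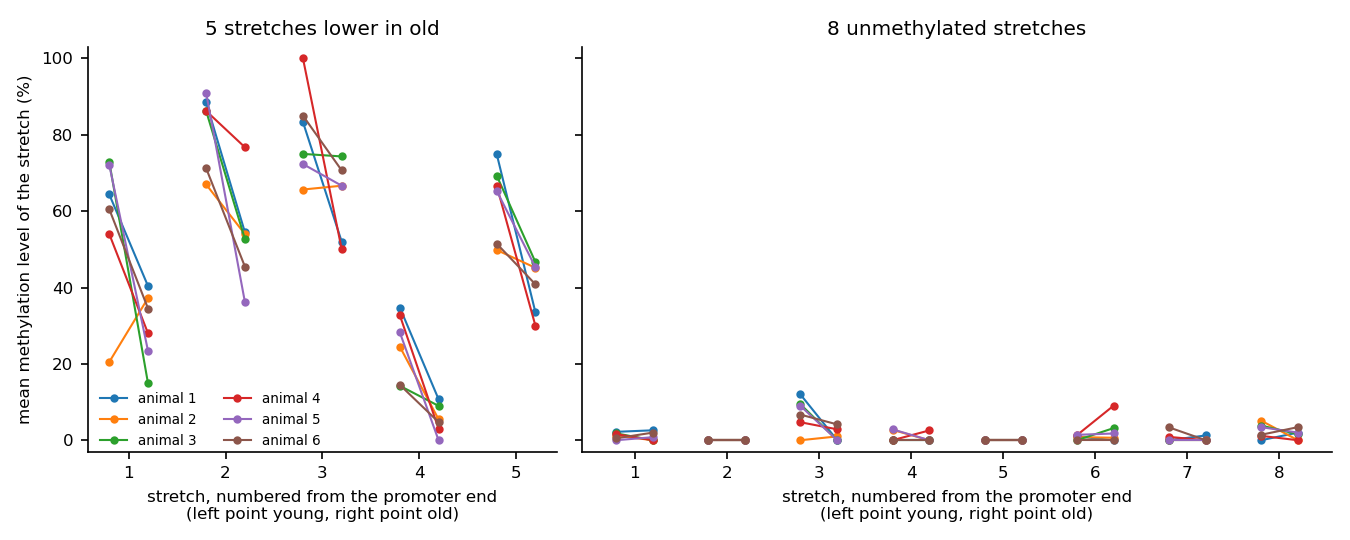
Mean methylation level (%) of each animal in its young (left point) and old culture (right point), for the 5 stretches lower in old cultures and the 8 unmethylated stretches, both numbered from the promoter end. Most lines of the left panel descend, with animal 2 rising in the promoter stretch (20.5% to 37.2%), and the right panel stays at or under 12%.

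Into the gene, 5417 to 5477 bp from the promoter position, lay a stretch from 1095397 to 1095457 with 4 positions, 2 of them listed as intronic. Its level ran from 67.0% to 91.0% (median 86.2%) in young cultures and from 36.2% to 76.8% (median 53.4%) in old cultures, and the young culture was higher in all 6 animals, by 28.4 ± 16.5 points. The groups overlapped only through the old culture of animal 4.

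Position 1095438 of this stretch had the widest difference of the window. The young cultures read 71%, 75%, 88%, 100%, 100% and 60% for animals 1 to 6, and the old cultures 60%, 33%, 40%, 67%, 33% and 7%. The difference was 42.3 ± 19.1 points (exact sign-flip permutation test, P = 0.031, n = 6). It was also among the 3 positions of the window with the widest spread between animals: animal 6 was the lowest and animal 4 the highest on the mean of both ages, 50.0 points apart.

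Its neighbour 1095457 read 79% to 100% (median 88.5%) in young and 38% to 86% (median 71.0%) in old cultures, higher in the young culture of every animal by 24.7 ± 21.0 points (exact permutation P = 0.031, n = 6). It had 8.92 reads per culture, the fewest of the listed positions, and lost its call without any 1 of animals 1, 2, 5 and 6. The stretch from 1093811 to 1093832, at 80.2% ± 12 in young and 63.4% ± 10.03 in old cultures, differed by 16.8 ± 20.1 points, and 0 of its 3 positions were called. Animals 2 and 3 differed there by -1.0 and 0.667 points, and animal 4 by 50.0.

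Farthest from the promoter position, at distances of 61996 to 62886 bp, 6 listed intron positions fell within 890 bp. The first stretch of this group, 1037988 to 1038050, had 6 positions, all on the minus strand and with the higher mean in young cultures. Its level ran from 49.8% to 75.0% in young and from 30% to 46.7% in old cultures, so that the ages did not overlap, and the mean difference was 22.7 ± 14.3 points with all 6 animals in the same direction.

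Position 1037988 of this stretch ranged from 58% to 100% (median 87.0%) in young and from 40% to 57% (median 53.0%) in old cultures. Animal 2 was almost level here, at 58% young and 57% old. The difference was 34.2 ± 23.3 points (exact sign-flip permutation test, P = 0.031, n = 6). At 1037992 the levels were 88% ± 10.6 and 63.5% ± 14.1, with animal 3 higher in the old culture (exact permutation P = 0.0938, n = 6). At 1038043 they were 53.5% ± 15.4 and 25.8% ± 14.7, with animal 2 at 26% young and 29% old (exact permutation P = 0.0625, n = 6).

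The next stretch, 1038335 to 1038352, was 2 CpGs read on both strands, and it was nearly unmethylated in old cultures. Its level was 14.2% to 34.8% (median 26.4%) in young and 0% to 10.8% (median 5.12%) in old cultures, again with no overlap. The mean difference was 19.3 ± 10 points, with all 6 animals in the same direction.

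The CpG at 1038351 and 1038352 carried it. On the plus strand the young cultures read 7% to 50% (median 33.0%) and the old cultures 0% to 18% (median 4.00%), a difference of 25.3 ± 13.9 points. On the minus strand they read 11% to 67% (median 45.0%) and 0% to 27% (median 0%), where 5 of 6 old cultures were at 0 and that of animal 1 at 27%, a difference of 37.0 ± 24.1 points. Every animal was higher in the young culture on each strand, and with the strands summed the CpG differed by 29.1 ± 14.4 points (exact permutation P = 0.031, n = 6, for each strand and for the sum). Among the listed CpGs only this CpG and that of 1100874 were tested on both strands, and only here were both strands called. The plus strand, 1038351, was the deepest of the listed positions, with 21.6 reads per culture. Whether overlapping mates were counted doubly there was not tested. The neighbouring CpG at 1038335 differed by 1.5 ± 17 points on the plus strand, with the young culture higher in 2 of 6 animals, and by 13.5 ± 13 points at 1038336 on the minus strand.

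**Figure D3:**
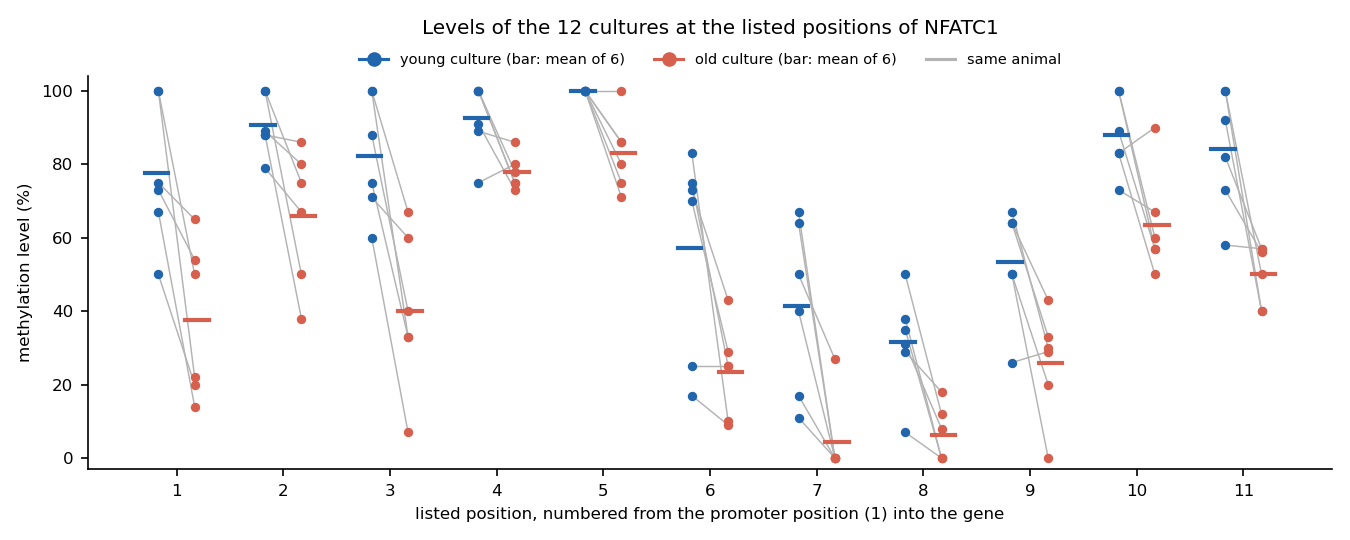
Methylation level (%) of the 12 cultures at the 11 listed positions of NFATC1, numbered from the promoter position (1) to the position farthest into the gene (11), with points joined by animal and bars at the mean of 6 cultures. The old bar is below the young bar at every position, from 100% to 83.0% at position 5 and from 82.3% to 40.0% at position 3.

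The remaining 3 listed positions stood alone or in short runs. At 1038878 the young cultures read 17% to 83% (median 71.5%) and the old cultures 9% to 43% (median 25.0%). In the young cultures animals 1 and 3 were low, at 17% and 25%, and in the old cultures animals 1 and 6, at 9% and 10%. The difference was 33.7 ± 27.1 points, with 5 animals higher in the young culture and animal 3 equal (exact permutation P = 0.0625, n = 6). At 1048455, annotated to an intron and a CpG island, all 6 young cultures read 100%, and the old cultures read 71% to 100%, a difference of 17 ± 10.2 points (exact permutation P = 0.0625, n = 6). At 1060581 the levels were 92.5% ± 9.89 and 77.8% ± 4.71 (exact permutation P = 0.0938, n = 6), with animal 2 higher in the old culture.

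Of the 11 calls, 7 held when each animal was left out in turn, and 4 did not: 1037992, 1038878, 1060581 and 1095457, each lost in 4 of the 6 rounds. Without animal 5 the count fell to 7, and without animal 2 it was 15.

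Other stretches of the gene were near the same mean level at both ages. The methylated stretches 1048102 to 1048111, 1069397 to 1069406 and 1074286 to 1074300 held 93.7%, 92.4% and 88.2% at the young age and 93.5%, 91.2% and 85.0% at the old age. The last of these was higher in the young culture in 5 of 6 animals, with animal 4 at -21.3 points. Its difference of 3.17 points ran from 1.6 (without animal 3) to 8.07 (without animal 4) with 1 animal left out. The second differed by 1.28 points, and by -1.53 (without animal 3) to 4.73 (without animal 2). The unmethylated intragenic stretch 1062342 to 1062454 stood at 2.5% ± 1.95 and 1.5% ± 1.32. At 33 of the 167 positions all 12 cultures read 0, and at 1 all read 100%.

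Intermediate stretches were not all alike either. The 12 positions from 1044280 to 1044469 were at 16.9% ± 10.9 in young and 16.7% ± 7.44 in old cultures, with animals from 18.0 points higher in the old culture to 10.3 points higher in the young. The 13 positions from 1091567 to 1091719, which include 1091637, were at 33.2% ± 9.66 and 25.5% ± 5.29, higher in the young culture in 5 of 6 animals but not in animal 2, and they met the rule for lower in old once that animal was left out. The stretch from 1095951 to 1095997 had a mean difference of 12.1 ± 19.3 points with only 3 of 6 animals higher in the young culture. The stretch from 1092285 to 1092349 was the 1 intermediate stretch with the higher mean in old cultures, 69.3% against 67.1%.

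The stretch from 1071587 to 1071653 held positions with a wide spread between animals. Its level was 27.4% ± 13.9 in young and 22.1% ± 5.01 in old cultures. Position 1071615 had the widest range between animals of the window, 72.5 points on the mean of both ages, since animal 2 read 85% and 60% and animal 3 read 0 at both ages. The other strand of this CpG, 1071616, did not show it. There animal 2 read 54% and 0% and animal 3 read 11% and 31%, from 22.8 reads per culture against 12.8. Position 1071613, a neighbour of 1071615, had a range of 48.5 points. At 1071615 and 1071613 the ages differed by 5.33 and -5.00 points, well inside that spread (exact permutation P = 0.438 and P = 0.719, n = 6).

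By animal, the listed positions were higher in the young culture at 11 of 11 in animals 4, 5 and 6, at 10 in animal 1 and at 9 in animals 2 and 3. These positions and the 5 stretches were chosen by rules on the same animals, so agreement between animals is partly built in. In the 25 positions of the 5 stretches, animal 2 split evenly, with 12 higher in each culture and a median difference of 0, while the medians of the other 5 animals were 17 to 35 points. Animal 2 had the higher stretch mean in the young culture in 3 of the 5 stretches and every other animal in all 5. Within the intermediate positions of the window, 29 were higher in the young and 26 in the old culture of animal 2, against 45 and 13 in animal 5.

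The spread was wide at these levels. At the intermediate positions of the window the SD over the 6 young cultures was 18.1 points in the median, and over the old cultures 14.6, against 11 and 11.2 at intermediate positions of the table. The SD of the within-animal differences was 23.1 points in the median against 15.4. Window positions had 12 reads per culture in the median, against 14.2 for the table.

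**Figure D4:**
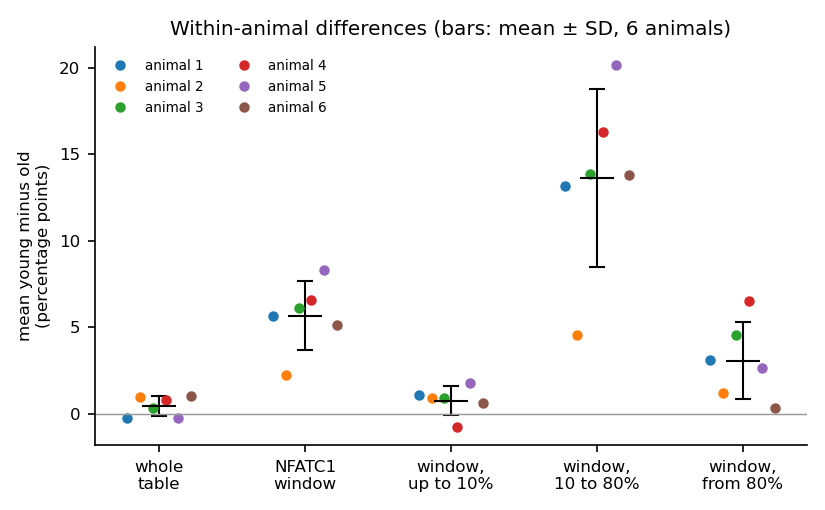
Within-animal differences (young minus old, percentage points) of the mean level over the whole table, the NFATC1 window and the window's positions by level, with 1 point per animal and bars at the mean ± SD of 6 animals. The window's intermediate positions reach from 4.55 points in animal 2 to 20.2 in animal 5, and the whole table lies between -0.247 and 1.01.

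Other genes of the calcium, calcineurin and NFAT pathway were looked up among the called positions. Only listed positions carry a gene name, so the share of all tested genes that hold a called position is not known and the counts that follow have no background. Of 40 such genes, 2 held positions more methylated in young cultures (10 positions), 4 held positions more methylated in old cultures (5 positions), and none held both. The calmodulin and calcineurin subunit genes held none, and neither did the NFAT family members NFATC2, NFATC3, NFATC4 and NFAT5, the calcineurin inhibitors RCAN1, RCAN2 and RCAN3, or the store-operated calcium channel genes. A gene without a called position may have had few tested positions.

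Most of these positions were in ITPR1, an inositol trisphosphate receptor that releases calcium from the endoplasmic reticulum. It had 9 positions in an intron, all more methylated in young cultures by 13.7 to 54.5 points. All except 21640355 lay close together, from 21639649 to 21639727 on chromosome 22. Some were both strands of the same CpG, so they are not independent of each other. Its relatives went the other way: ITPR2 at 1 position, from 70.5% ± 4.72 in young to 80.8% ± 4.12 in old cultures, and ITPR3 at 2 positions. Among AP-1 partners, FOSL2 was more methylated in young and FOSL1 in old cultures at 1 position each, and so was the kinase gene CSNK1E in old cultures. Called positions in the young-higher direction named 1607 genes, of which 14, NFATC1 among them, had 11 or more. How many positions were tested in each gene is not known.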

How the data were processed

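RRBS data of 12 bovine dermal fibroblast cultures were used, a young and an old one from each of 6 animals. The authors trimmed the reads with Trim Galore 0.3.7, aligned them with Bismark 0.13.1 to bosTau8, kept unique alignments and counted overlapping mates as 2 reads. The deposited level is the fraction of reads of a culture with C among those with C or T, to 2 decimals. The deposited coverage is a count of reads per position and strand, with no normalization and at least 5 reads in every culture. Other deposited values used are the positions and annotations of the authors' list of positions with P below 0.05, in which a promoter is 2.5 kb before to 1.0 kb after a transcription start. The authors' difference and p-value columns, which hold their comparison of the ages, and 24 per-sample columns of the list that repeat levels and coverage were not used. Positions are printed counting from 1.

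Positions, gene lists and stretch rules were chosen with earlier results of these data known. Named positions are the listed ones, those called, their tested partner strands, and the 3 with the widest range between animals. Each of the 838705 positions was tested on its levels with the methods' paired test. Single positions were tested with an exact two-sided sign-flip permutation test over 64 patterns of 6 animals, whose smallest P is 0.031. For the listed positions this test reuses the values by which they were selected. The pairing comes from the heifer and not from the values. Deviations from the age means correlated with a median of 0.0435 between cultures of 1 animal (range -0.00240 to 0.0899). Between animals the median was -0.0133 (range -0.0498 to 0.0485), so the ranges overlapped and both lay near 0. P-values measure the spread between 6 animals, each with 1 culture an age.

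Alternatives were no minimum difference, a minimum of 0.25, at least 10 or 20 reads, an unpaired test, limma blocked on the animal, a quasi-binomial model with a dispersion of at least 1, merged strands, stretch gaps of 50 or 200 bp, and each animal left out. Tests were first run on simulated data. Fits used limma 3.58.1 (R 4.3.3) and scipy 1.17.1 (Python 3.11.15), tables pandas 2.3.3 and numpy 2.4.6, and plots matplotlib 3.10.9. Sequences and exon structure were not analysed here.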

Additional observations from a re-analysis of the deposited data

Results flagged for a closer look

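In groups of 6 cultures, 66 sets of values (the listed positions, the stretch means and the window mean, at each age) were searched for a culture far from the others, and 7 were found. For separate sets of normally distributed values the cutoff flags about 1 in 20 by chance. Some of these sets share positions and others lie at or near 0%, so that share is no background for the 7. Of the 7, 2 touch a called position or a stretch lower in old cultures. At position 1038352 the old culture of animal 1 read 27% while the other 5 read 0, and in the promoter stretch 1100852 to 1100915 the young culture of animal 2 stood at 20.5% while the others were at 54.0% to 72.9%. Without animal 1 the call at 1038352 held, and without animal 2 the promoter stretch differed by 36.6 points in place of 27.7.

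Another was in a methylated stretch, 1069397 to 1069406, where the young culture of animal 2 stood at 77.3% against 91.7% to 100% in the others. The other 4 were in unmethylated stretches next to the promoter stretch. In 1099175 to 1099241 the young culture of animal 6 stood at 3.38% (the others up to 0.875%) and the old culture of animal 1 at 1.25% (the others at 0). In 1099454 to 1099497 the old culture of animal 4 stood at 9.06% (the others up to 3.18%), and in 1100113 to 1100148 at 2.57% (the others at 0). What set these cultures apart was not tested.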

How the results depend on the processing

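The 11 positions of the NFATC1 window more methylated in young cultures became 12 without a minimum difference, 7 with a minimum of 0.25, 1 where every culture had at least 10 reads and 0 at 20 reads. The unpaired test (no replicate block) called 18, limma with the animal as a replicate block 15 and the quasi-binomial model 11, and merging strands gave 10. All 11 positions were kept by limma and by the unpaired test, 10 by the quasi-binomial model, and 1 with at least 10 reads. Leaving out 1 animal gave 7 to 15 (lowest without animal 5). In the opposite direction the count was 0 in every one of these settings except without animal 5, where it was 1 (range 0 to 1), position 1091719.

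The 14129 calls over the whole table became 24094, 3275, 2901 and 376 under the same first 4 settings and 9323 with the quasi-binomial model, and 12866 to 14486 with an animal left out. The mean difference over the window was 7.77 points at positions with at least 10 reads, against 5.67, and 5.14 to 6.35 with an animal left out. The stretches lower in old numbered 5 at gaps of 50 and 200 bp, and 5 to 6 with an animal left out, an alternative added after the data were seen. Of the listed positions, 5 with an exact P above 0.05 passed without the replicate block and 5 with limma, and 4 with the quasi-binomial model, while merging strands took 1100874 to an exact permutation P of 0.0625. The cause of these shifts was not tested, except that fewer positions are tested at higher coverage. The sign-flip test of 5 animals cannot reach 0.05. Depth is a limit too: 22 of 167 positions had at least 10 reads in every culture.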
